A study of Saccharomyces cerevisiae with 36 samples.

Results

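The 6 samples described here are *mip6Δ* budding yeast cells at 20 min of heat shock, 3 with and 3 without an earlier heat shock, among 36 RNA-seq samples in 12 groups of 3. The rule that chose them uses strain, condition and time alone, though it was set with earlier results of these data known. In the memory group, *mip6Δ* cells had been through a 20 min heat shock and 60 min of recovery at optimal temperature before the 20 min heat shock at whose end they were collected. In the no-memory group, *mip6Δ* cells from the other flask of a divided culture met this 20 min heat shock as their first. Both groups were grown to exponential phase in rich medium (YPD) and were heated by adding medium at 51°C. Both have the BY4741 background, a haploid MATa laboratory strain (*his3Δ1 leu2Δ0 met15Δ0 ura3Δ0*), and in both the *MIP6* gene was replaced by a kanamycin resistance cassette (*mip6::KANMX4*). One deletion strain stands for the genotype, so a difference between *mip6Δ* and WT cannot be told apart from any other difference between those strains. The comparison asks how far an earlier heat shock changes the transcripts of cells without Mip6 at the end of the next one, and WT samples and the 0 and 15 min samples serve to place it.

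Heat shock in yeast raises the genes of chaperones, which refold or hold damaged proteins, largely through the heat shock factor Hsf1, and a wide set of stress genes through the paralogous activators Msn2 and Msn4. At the same time it lowers the genes that build ribosomes, the costliest product of a growing cell, many of whose protein genes are switched on through the factor Rap1. Mip6 is an RNA-binding protein that interacts with the mRNA export receptor Mex67. Trehalose and glycogen, made from glucose phosphates, are the reserve carbohydrates that stressed cells store, and trehalose also protects proteins.

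*MIP6* (YHR015W) had 0 counts in all 18 *mip6Δ* samples, whereas the 18 WT samples had 134 to 626 counts each. The total counts of the 6 samples ran from 28363183 to 35789739, within the series' range of 28270651 to 42233578. *HIS3*, of which the *his3Δ1* allele lacks only an inner part, had 995 to 2224 counts in the 6 samples, so its counts do not check the genotype. *LEU2*, *URA3* and *MET15* (sought as *MET17*) had no matching entry among the counted genes, so the background was not checked through them. Levels are given as CPM, counts put on a common library size after scaling by TMM factors, which hold the typical gene equal between libraries, and are compared within a gene only, since they take no account of length. All 6 MATa markers had counts in every *mip6Δ* sample. Of the markers of other cell types, the alpha pheromone genes *MF(ALPHA)1* and *MF(ALPHA)2* stayed at or below 43 and 15 counts. Others were not near 0, with *STE3* at 130 to 685, *SAG1* at 838 to 2108 and *IME1* at 337 to 1007 counts. The markers as a list therefore do not settle the cell type, which rests on the strain's description.

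In *mip6Δ* cells at 20 min, memory samples differed from no-memory samples in 2736 of 6038 genes tested (45.3%) by edgeR's quasi-likelihood test at a Benjamini-Hochberg adjusted p below 0.05. Memory samples were higher in 1387 genes (23.0%) and lower in 1349 genes (22.3%). Differences of at least 2-fold were found in 563 genes (9.32%), 399 higher (6.61%) and 164 lower (2.72%). Without the samples numbered 3, 1806 genes were called in all. The genes of ribosomal proteins and ribosome assembly made up the upper end, and chaperone genes, stress genes and a few RNA polymerase III transcripts the lower end. In such bulk samples, fewer cells with a transcript and less of it in every cell cannot be told apart. The direction of small differences depends on the scaling. The TMM factors themselves were 1.156, 1.129 and 1.165 in memory samples, against 0.9926, 1.028 and 0.9808 in no-memory samples. With library totals in place of TMM, the median difference over all genes moved up by 0.20 on the log2 scale, and 2436 genes were called higher and 618 lower. List counts given below with library totals stand beside these 2436 and 618 of 6038 genes, not beside 23.0% and 22.3%.

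**Figure D1:**
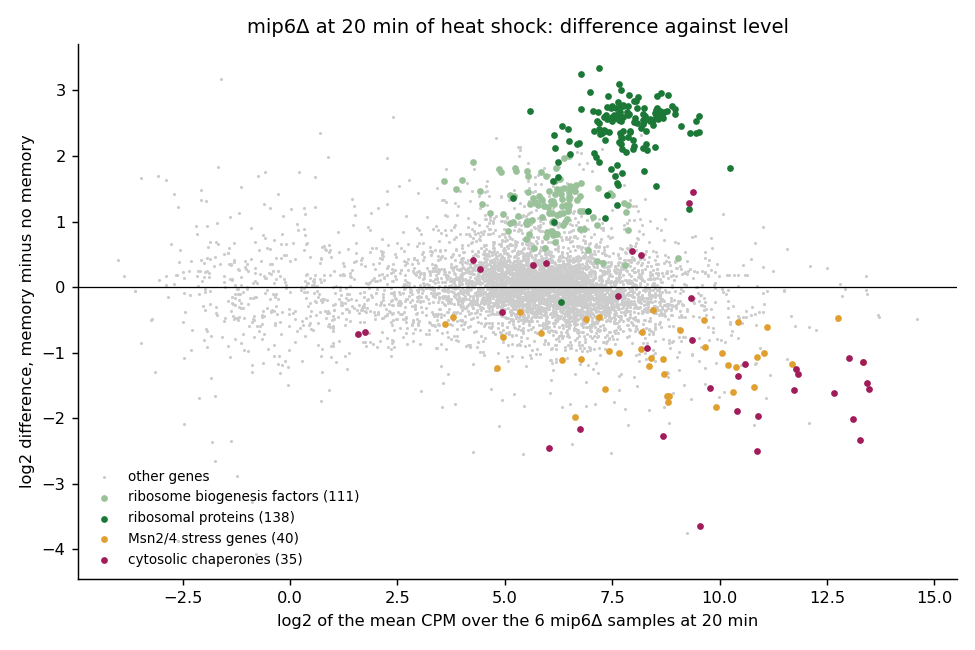
Each point is a gene with counts in the 6 *mip6Δ* samples at 20 min, with the log2 of its mean CPM on the x axis and the log2 difference, memory minus no memory, on the y axis. Ribosomal protein genes lie mostly between 1 and 3.34, and cytosolic chaperones reach down to −3.64.

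Short promoter stretches are shown because they carry the elements through which the factors named above are known to act. Their genes were picked for holding a match, from the 12 lowest and 12 highest named genes and from the Msn2/4 list. They are from the R64 reference genome (sacCer3), on the strand of the gene, with 8 bases on each side of the match. Motifs were searched on both strands in the window from 400 to 101 bases before the start codon of 5975 genes. The first 3 stretches hold a heat shock element of 3 units, which is GAA, TTC and GAA or TTC, GAA and TTC with NN between neighbours, in capitals, from *BTN2* (chrVII:772107-772135, plus strand), *HSP42* (chrIV:806375-806403, plus strand) and *FES1* (chrII:444844-444872, minus strand):
BTN2: tttttctaGAAAGTTCCGGAAaattgcga
HSP42: aagttctgGAAGGTTCGCGAAttgagaac
FES1: ttggactgGAATCTTCTGGAAgttttttg

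The next stretches hold a stress response element (AGGGG or CCCCT), the site of Msn2 and Msn4, in capitals, from *ALD3* (chrXIII:601099-601119, minus strand) and *HXT5* (chrVIII:296739-296759, minus strand):
ALD3: tgatcagcCCCCTtcttaagc
HXT5: ttagttttAGGGGcacggagt

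The last stretches hold the core of a Rap1 site (ACCCANACA or TGTNTGGGT), in capitals, from the ribosomal protein genes *RPS17B* (chrIV:1355833-1355857, minus strand) and *RPL9A* (chrVII:228623-228647, minus strand), with log2 differences of 2.98 and 2.91:
RPS17B: aaaattacACCCATACAtttatagt
RPL9A: tccagaaaTGTTTGGGTttattttt

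The 3-unit heat shock element was found in 65 of 5975 windows (1.09%) and in 10 of 35 windows of cytosolic chaperone genes. The stress response element was found in 23.5% of all windows and in 33 of 40 windows of the Msn2/4 list, and the Rap1 core in 2.23% of all windows and in 35 of 138 windows of ribosomal protein genes. Of the 12 lowest named genes, 3 of 10 windows held the 3-unit heat shock element, and of the 12 highest, 2 of 12 held the Rap1 core. A match describes the letters in the window, not a bound site.

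Ribosomal protein genes were higher with memory nearly throughout: 137 of 138 were called higher, 136 of them by at least 2-fold, and none lower, with a median log2 difference of 2.53 against −0.01 over all genes tested. Their summed level was 68054, 52567 and 57401 CPM in memory samples, against 10299, 9466 and 14628 CPM in no-memory samples. The lowest memory sample thus stood well above the highest no-memory sample, which was replicate 3. *RPS26B*, for a protein of the small subunit, had 314, 238 and 244 CPM in memory samples and 23.8, 19.1 and 35.9 CPM in no-memory samples. Its log2 difference of 3.34 (SE 0.38, adjusted p 1.05e-07) was the highest among called genes of at least 10 CPM. *RPL31B*, for a protein of the large subunit, had 242, 162 and 193 CPM with memory and 18.1, 17.7 and 27.0 CPM without (log2 difference 3.25, SE 0.31, adjusted p 1.98e-08). Among called genes of at least 10 CPM with 1 sign in all 3 pairs, the 12 highest were all of this class, down to *RPS18B* at 2.84 (SE 0.31), which had 538, 410 and 445 CPM in memory samples against 58.3, 48.2 and 88.1 CPM in no-memory samples. The 137 called genes had no overlap between memory and no-memory samples, where 26.6% of all genes tested had every memory sample above every no-memory sample. Many yeast ribosomal protein genes come as near-identical pairs between which reads can be split, and among the 86 genes with no such copy or overlapping gene all were called higher (median log2 difference 2.40).

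The exception was *RPL15B* (YMR121C), the minor copy of its pair. It had 84.0, 78.6 and 57.5 CPM in memory samples and 103, 88.2 and 66.9 CPM in no-memory samples, ranges that overlapped (log2 difference −0.23, SE 0.16, adjusted p 0.262). With the replicate number of each strain as a block, its adjusted p was 0.02. It has a near-identical copy, so its reads may be divided with it.

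Ribosome biogenesis factors, which process ribosomal RNA and assemble the subunits, were called higher in 107 of 111 cases and lower in none, with a median log2 difference of 1.27. Their summed level was 11836, 12141 and 14036 CPM in memory samples and 4059, 5944 and 7265 CPM in no-memory samples. *DBP3*, an RNA helicase of early ribosomal RNA processing, had 131, 127 and 142 CPM with memory against 21.1, 34.2 and 46.3 CPM without (log2 difference 1.97, SE 0.33, adjusted p 3.47e-05). *RRP5*, a scaffold of the same steps, stood at 2.01 (SE 0.34), and *FAF1*, of the small subunit's assembly, at 1.90 (SE 0.25). Those not called were *DBP2*, *SQT1*, *TIF6* and *NSR1*, with log2 differences of 0.33, 0.36, 0.40 and 0.45 in this order.

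Subunits and regulators of RNA polymerases I and III, which transcribe ribosomal and transfer RNA, were called higher in 18 of 23 cases and lower in none (median log2 difference 0.84). *RPA135*, the second largest subunit of RNA polymerase I, had 215, 222 and 312 CPM in memory samples, against 31.1, 48.9 and 94.6 CPM in no-memory samples, a log2 difference of 2.10 (SE 0.41, adjusted p 0.000194). *RPA190*, the largest subunit, followed at 2.06. *MAF1*, the repressor of RNA polymerase III, was not called (log2 difference −0.15, SE 0.09). As in the summed ribosomal protein genes, no-memory replicate 3 was the highest of its group in *DBP3* and *RPA135*.

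**Figure D2:**
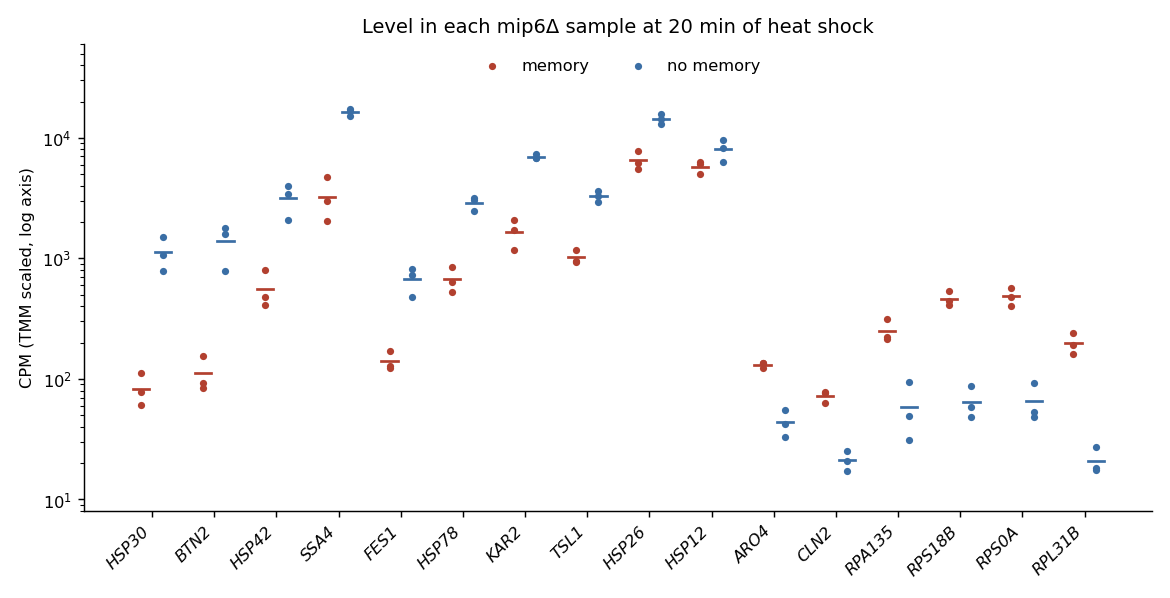
CPM on a log axis of 16 genes in each *mip6Δ* sample at 20 min, memory at the left and no memory at the right of each gene, with a bar at the mean of 3 samples. Memory and no-memory samples do not overlap in any of the 16 genes, and come closest in *HSP12*, at 5002 to 6258 CPM with memory and 6310 to 9503 CPM without. The genes were picked from those named in the text, all but *HSP12* called, so this is no separate evidence. Of all genes tested, 26.6% had every memory sample above every no-memory sample and 27.3% had every one below.

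Chaperones of the cytosol went the other way: 25 of 35 were lower with memory, 20 of them by at least 2-fold, and 6 were higher, with a median log2 difference of −1.17. In 24 of them every memory sample was below every no-memory sample, where this held for 27.3% of all genes tested. Their summed level was 38658, 58282 and 46812 CPM in memory samples and 142865, 136568 and 122620 CPM in no-memory samples. Memory replicate 2 was the highest of its group and no-memory replicate 3 the lowest of its own, and the groups did not overlap.

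*BTN2*, a factor that sorts misfolded proteins into deposits, fell the furthest of these genes. It had 84.7, 156 and 92.9 CPM in memory samples against 1787, 1588 and 780 CPM in no-memory samples (log2 difference −3.64, SE 0.79, adjusted p 0.000523). Its paralog *CUR1* stood at −2.17 (SE 0.50), with 38.5, 44.7 and 33.3 CPM with memory and 224, 184 and 116 CPM without. *HSP42*, the small heat shock protein that gathers misfolded proteins into assemblies, had 474, 794 and 409 CPM in memory samples and 4016, 3437 and 2067 CPM in no-memory samples (log2 difference −2.51, SE 0.70, adjusted p 0.00483). Its adjusted p was 0.0516 without the samples numbered 2. *HSP26*, the other small heat shock protein, differed less, with 5549, 7750 and 6165 CPM with memory and 15667, 14303 and 13136 CPM without (log2 difference −1.15, SE 0.24, adjusted p 0.000359).

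The Hsp70 genes of the cytosol did not move as one. *SSA4*, the strictly stress-induced Hsp70, had 2048, 4719 and 2986 CPM in memory samples and 16553, 17459 and 15051 CPM in no-memory samples (log2 difference −2.33, SE 0.63, adjusted p 0.00363). DESeq2 gave it no adjusted p. *SSA3* (−1.89, SE 0.23), *SSA2* (−1.56, SE 0.33) and *SSA1* (−1.46, SE 0.44) were lower too, of which *SSA1* and *SSA2* are near-identical copies. The ribosome-bound Hsp70 genes were higher. *SSB1*, which helps nascent chains to fold, had 974, 908 and 1032 CPM with memory against 251, 320 and 492 CPM without (log2 difference 1.46, SE 0.27, adjusted p 0.00012). *SSB2*, its near-identical copy, had a log2 difference of 1.29 (SE 0.23). Their partners at the ribosome, the J-protein *ZUO1* (0.49, SE 0.12) and the atypical Hsp70 *SSZ1* (0.56, SE 0.15), were also called higher. The other members called higher were *CPR7* at 0.34 (SE 0.10) and *TAH1* at 0.41 (SE 0.09), cochaperones of Hsp90.

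*FES1*, the nucleotide exchange factor of Hsp70, had 123, 169 and 129 CPM with memory and 815, 732 and 483 CPM without (log2 difference −2.27, SE 0.41, adjusted p 7.35e-05). *APJ1*, a J-protein, had 21.2, 21.9 and 17.7 CPM in memory samples against 154, 109 and 69.7 CPM in no-memory samples (log2 difference −2.46, SE 0.46). *SIS1*, an essential J-protein, stood at −1.96 (SE 0.40). *HSP104*, the disaggregase that pulls proteins out of aggregates, had 2645, 4642 and 3214 CPM with memory and 15998, 14298 and 12062 CPM without (log2 difference −2.01, SE 0.57, adjusted p 0.00485). Of the Hsp90 genes, *HSP82* had a log2 difference of −1.62 (SE 0.55) and its near-identical copy *HSC82* of −1.08 (SE 0.27). The cochaperones *SBA1* and *CDC37* were not called, at −0.16 (SE 0.09) and −0.13 (SE 0.07), sizes below the shift between the scalings.

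The lowest of the called genes of at least 10 CPM, outside these lists, was *HSP30*, which encodes a stress protein of the plasma membrane. It had 60.6, 77.9 and 111 CPM in memory samples against 1508, 779 and 1069 CPM in no-memory samples (log2 difference −3.75, SE 0.57, adjusted p 7.84e-06). *ROQ1*, whose product redirects the ubiquitin ligase Ubr1 to misfolded proteins, had 12.9, 14.2 and 10.5 CPM with memory and 93.3, 84.1 and 43.5 CPM without (log2 difference −2.55, SE 0.54, adjusted p 0.000428). *GID10*, a substrate receptor of the GID ubiquitin ligase, stood at −2.13 (SE 0.38) and *RGI1*, linked to energy metabolism, at −2.40 (SE 0.34). In these 4 genes every memory sample was below every no-memory sample, where this held for 27.3% of all genes tested. The 4 genes were picked for their large differences, so this is no separate evidence.

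Mitochondrial chaperones were lower in 8 of 16 cases and higher in 3, where 22.3% of all genes were lower and 23.0% higher. *HSP78*, the disaggregase of the matrix, had 530, 854 and 631 CPM with memory and 3156, 3049 and 2459 CPM without (log2 difference −2.10, SE 0.54, adjusted p 0.00248). *MDJ1*, the J-protein of the matrix, was at −1.82 (SE 0.32) and *SSC1*, its Hsp70, at −1.33 (SE 0.20). *MGE1*, the exchange factor of Ssc1, was called higher at 0.45 (SE 0.08), beside the import motor subunits *PAM16* and *PAM18*, both at 0.41. In the endoplasmic reticulum (ER), 9 of 18 genes were lower and 1 higher. *KAR2*, the Hsp70 of the lumen, had 1169, 2076 and 1731 CPM in memory samples against 6742, 7362 and 6765 CPM in no-memory samples (log2 difference −2.07, SE 0.30, adjusted p 4.31e-06). *HAC1*, for the activator of the unfolded protein response, was at −1.06 (SE 0.15). With library totals in place of TMM, 6 mitochondrial and 4 ER genes were called higher, and 6 and 6 lower.

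The list of Msn2/4 stress genes had 36 of 40 members lower and none higher, 22 of them by at least 2-fold, with a median log2 difference of −1.04. Its summed level was 26786, 33081 and 26289 CPM in memory samples and 61277, 55703 and 54346 CPM in no-memory samples, with no overlap. *ALD3*, an aldehyde dehydrogenase, had 349, 537 and 392 CPM with memory and 1433, 1383 and 1736 CPM without (log2 difference −1.83, SE 0.34, adjusted p 0.000116), and its near-identical neighbour *ALD2* was at −1.01 (SE 0.18). *HXT5*, a hexose transporter of slow-growing cells, had 196, 258 and 162 CPM in memory samples, against 737, 696 and 636 CPM in no-memory samples (log2 difference −1.75, SE 0.28, adjusted p 1.79e-05). *CTT1*, the cytosolic catalase, had 236, 283 and 190 CPM with memory and 721, 479 and 579 CPM without (log2 difference −1.33, SE 0.28, adjusted p 0.0004). *TMA10*, whose product binds ribosomes, was the lowest of the list at −1.98 (SE 0.61, adjusted p 0.00896), and without the samples numbered 2 its adjusted p was 0.0639. *HSP12*, a membrane-stabilising protein, was not called. It had 6047, 6258 and 5002 CPM in memory samples and 9503, 8197 and 6310 CPM in no-memory samples, which did not overlap (log2 difference −0.47, SE 0.33, adjusted p 0.246). In a fit of the 6 samples alone with the replicate block it was called lower (−0.45, adjusted p 0.0412).

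Trehalose and glycogen genes were lower in 8 of 10 and in 9 of 13 cases and higher in none, with medians of −0.94 and −1.12. With library totals 1 glycogen gene was called higher. *TSL1*, a regulatory subunit of trehalose synthase, had 937, 1173 and 953 CPM with memory and 3601, 2956 and 3316 CPM without (log2 difference −1.69, SE 0.50, adjusted p 0.00686). Its adjusted p was 0.0574 without the samples numbered 2. *TPS1*, the synthase itself, was at −1.16 (SE 0.25), *TPS2*, the phosphatase of the next step, at −1.24 (SE 0.29) and *NTH1*, the trehalase that breaks trehalose down, at −0.81 (SE 0.18). *GLC3*, the glycogen branching enzyme, had 53.5, 62.8 and 42.8 CPM in memory samples, against 217, 186 and 155 CPM in no-memory samples (log2 difference −1.81, SE 0.37, adjusted p 0.000295), and *GDB1*, the debranching enzyme, was at −1.37 (SE 0.24). *GSY1*, a glycogen synthase, was at −1.61 (SE 0.48, adjusted p 0.00713), and without the samples numbered 3 its adjusted p was 0.0522. *NTH2*, the second trehalase, was called lower only with the replicate block and in some other settings (log2 difference −0.38, adjusted p 0.00319 with the block). Genes of synthesis and of breakdown were thus both among those that fell.

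**Figure D3:**
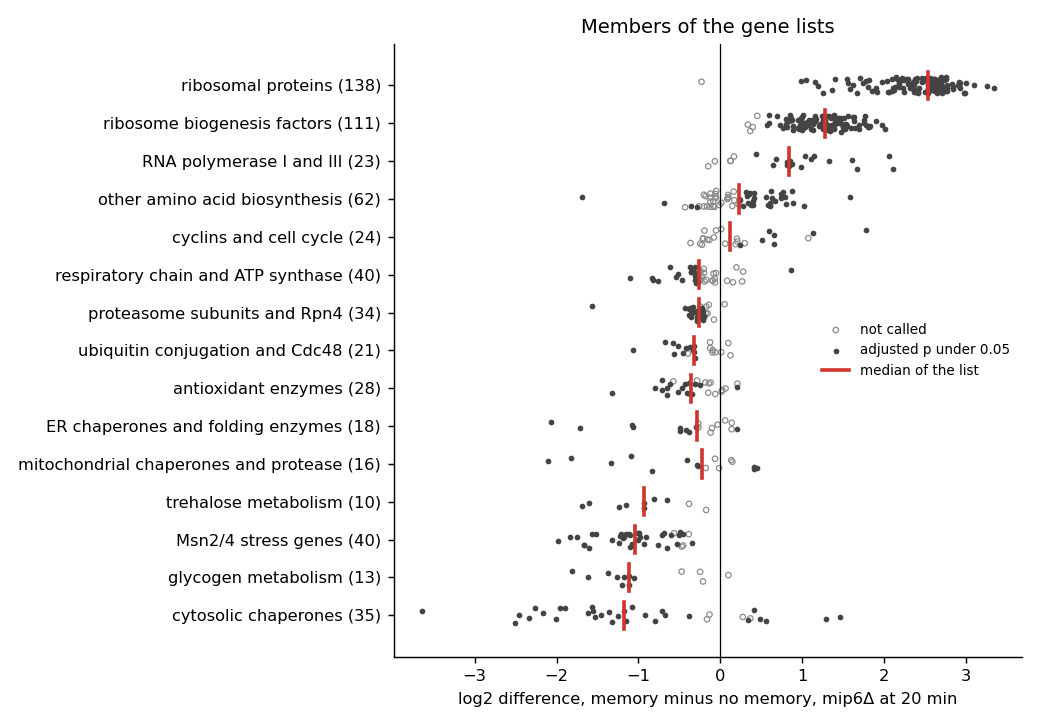
Log2 difference, memory minus no memory, of each member of 15 gene lists in *mip6Δ* at 20 min, filled where the adjusted p was below 0.05, with the list's median as a bar and its number of genes in brackets. The ribosomal protein list has its median at 2.53 and the cytosolic chaperone list at −1.17, with *SSB1* and *SSB2* at its right end.

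Smaller differences ran through the protein degradation, antioxidant and respiratory lists. Of 34 proteasome genes 24 were lower and none higher, with a median of −0.26. *RPN4*, which encodes the transcriptional activator of proteasome genes, had 104, 114 and 87.2 CPM in memory samples, against 402, 292 and 209 CPM in no-memory samples (log2 difference −1.56, SE 0.33, adjusted p 0.000354). The subunit genes called lower lay between −0.43 and −0.20, about as far as the shift between the scalings, and with library totals 3 of 34 genes were called lower. Ubiquitin conjugation genes were lower in 12 of 21 cases, led by *UBI4*, the stress-induced polyubiquitin gene, at −1.06 (SE 0.21), and with library totals 7 were lower and 3 higher. Antioxidant enzymes were lower in 16 of 28 cases and higher in 1, with a median of −0.36, and with library totals 8 were lower and 5 higher. Under that scaling far fewer of all genes were called lower than higher. Nuclear genes of the respiratory chain and ATP synthase were lower in 18 of 40 cases and higher in 1, against 6 lower and 4 higher with library totals.

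Transcription factors of the stress responses were lower in 10 of 23 cases and higher in none, and with library totals lower in 4 and higher in 3. *HSF1* had 164, 192 and 171 CPM in memory samples and 231, 209 and 211 CPM in no-memory samples (log2 difference −0.30, SE 0.06, adjusted p 0.000304). *MSN2* (−0.24, SE 0.08) and *MSN4* (−0.49, SE 0.19) were also called lower. With library totals none of the 3 was called, with *HSF1* at −0.10 (adjusted p 0.147), *MSN2* at −0.04 (adjusted p 0.753) and *MSN4* at −0.29 (adjusted p 0.188). The differences of the transcripts of these 3 activators were thus small beside the medians of −1.17 and −1.04 of the lists of chaperone and Msn2/4 stress genes. *XBP1*, a repressor of G1 cyclin genes induced by stress, was at −1.12 (SE 0.30). In glycolysis and hexose transport 12 of 35 genes were lower and none higher, with the glucose-phosphorylating enzymes *HXK1* at −1.52 (SE 0.39) and *GLK1* at −1.17 (SE 0.30) next after *HXT5*. With library totals 6 of these 35 genes were lower and 3 higher, and the median turned to 0.04, against −0.17 with TMM.

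Growth and biosynthesis genes other than those of the ribosome were higher in part. Amino acid biosynthesis genes outside the methionine pathway were higher in 30 of 62 cases and lower in 4, with a median of 0.23. With library totals 36 were higher and 3 lower. *ARO4*, the first enzyme of aromatic amino acid synthesis, had 135, 124 and 136 CPM with memory and 33.2, 42.5 and 55.7 CPM without (log2 difference 1.59, SE 0.21, adjusted p 1.09e-06). *ARO9*, an aminotransferase of aromatic amino acid breakdown, was the lowest of the list, with 418, 613 and 413 CPM in memory samples and 1491, 1603 and 1548 CPM in no-memory samples (log2 difference −1.68, SE 0.18, adjusted p 4.11e-08). Phosphate acquisition genes were higher in 8 of 26 cases and lower in 4, ergosterol synthesis genes in 7 of 28 and 3, and fatty acid genes in 3 of 18 and 1, beside 23.0% and 22.3% of all genes. With library totals these counts were 14 and 2, 17 and 1, and 5 and 0. *PHO90*, a low-affinity phosphate transporter, was at 1.38 (SE 0.25), and *ELO2* and *ELO3*, the elongases of very long chain fatty acids, were at 0.94 (SE 0.21) and 1.03 (SE 0.24). Of 31 methionine and sulfate assimilation genes 1 was higher and 3 lower, against 13 and 1 with library totals. Of 11 histone genes 2 were lower, against 2 higher with library totals. The TMM counts of these 2 lists also stand beside 23.0% and 22.3% of all genes. Of 24 cell cycle genes 7 were higher and none lower, where 23.0% and 22.3% of all genes were. With the replicate block 11 were higher and 2 lower, *CDC28*, the main cyclin-dependent kinase, among the lower (adjusted p 0.0157 with the block). With library totals *CLB3*, *CLB4*, *CLB5*, *PCL1*, *PCL5* and *PCL7* were called higher in addition, so this count depends on the scaling. *CLN2*, a G1 cyclin, had 77.7, 63.5 and 75.9 CPM with memory against 20.7, 17.2 and 25.5 CPM without (log2 difference 1.78, SE 0.28, adjusted p 1.19e-05). All 6 MATa markers were higher, from *MFA2* at 0.51 to *BAR1*, the protease that degrades alpha factor, at 1.08 (SE 0.24).

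Of 14 members of the complexes of Rpd3, a histone deacetylase, 4 were higher and 2 lower, where 23.0% and 22.3% of all genes were, and with library totals 6 were higher and none lower. *RPD3* itself had 102, 103 and 98.2 CPM in memory samples and 119, 105 and 110 CPM in no-memory samples (log2 difference −0.15, SE 0.05, adjusted p 0.026), and with library totals it stood at 0.056 with an adjusted p of 0.406. Without the samples numbered 1 or 3, its adjusted p was 0.272 or 0.178. *PES4*, the paralog of *MIP6*, had 10.1, 6.34 and 9.17 CPM with memory and 6.71, 5.92 and 6.11 CPM without (log2 difference 0.45, SE 0.24, adjusted p 0.128), with an adjusted p of 0.0166 with the replicate block and of 0.0377 with library totals. *RIE1*, a further RNA-binding protein, fell, with 127, 140 and 151 CPM in memory samples against 409, 458 and 329 CPM in no-memory samples (log2 difference −1.52, SE 0.23, adjusted p 6.9e-06). In its list of mRNA export, decay and granule genes 5 of 30 were higher and 5 lower, again beside 23.0% and 22.3% of all genes, and 14 were higher and 3 lower with library totals. *TIF4631*, which encodes the translation initiation factor eIF4G1, was the highest of them at 1.33 (SE 0.22), and *MEX67*, the export receptor, was called lower at −0.24 (SE 0.06) but not with library totals (−0.04, adjusted p 0.588). Of 14 genes that the study's text names, 9 were lower and none higher. That list was picked on these samples, so its count is no independent evidence.

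Small noncoding RNAs, a class looked at after the values were seen, were called in both directions, but less often than all genes. Of 79 tested, 13 were higher and 11 lower, where 23.0% and 22.3% of all genes were. With library totals 18 were higher and 9 lower. The lower ones included the RNA polymerase III transcripts *SCR1*, the RNA of the signal recognition particle, *RPR1*, the RNA of RNase P, and *SNR52*, a small nucleolar RNA. *SNR52* was near the floor, with means of 0.0997 CPM with memory and 0.745 CPM without. *SCR1* had 41.4, 77.7 and 37.5 CPM in memory samples, against 311, 338 and 259 CPM in no-memory samples (log2 difference −2.54, SE 0.52, adjusted p 0.000306). *RPR1* had 6.78, 7.24 and 3.12 CPM with memory and 34.9, 38 and 24.6 CPM without (log2 difference −2.51, SE 0.38, adjusted p 8.75e-06). The spliceosomal RNAs *SNR19* (U1) and *LSR1* (U2) were at −1.79 and −0.93. The libraries were made with a kit for polyadenylated RNA, which these transcripts normally are not, so the values count only molecules that passed this selection.

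Of the 9 small RNAs that lie inside another gene on the same strand 6 were higher and none lower, and of the 70 others 7 were higher and 11 lower. *SNR24* lies in *ASC1*, a gene of the small ribosomal subunit, and had a log2 difference of 2.35 beside 2.64 for *ASC1*. *SNR39* lies in *RPL7A* and had 1.98 beside 2.61. Reads of such a small RNA and of its host cannot be told apart where both cover the same bases, and all 9 are annotated as overlapping genes. *SNR73* to *SNR77*, which are not inside another annotated gene, were called higher as well, each at no more than 3.97 CPM on average with memory. *SNR72*, not inside another gene either, was not called (log2 difference 1.66, adjusted p 0.141).

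Before the last heat shock, at 0 min, the picture was another one. Memory samples had recovered for 60 min from the first heat shock, whereas no-memory samples had not been heated. At that time 928 of 6038 genes (15.4%) differed between *mip6Δ* memory and no-memory samples, 316 higher (5.23%) and 612 lower (10.1%), and 1726 with the replicate block of strain and number. Without the samples numbered 2 or those numbered 3, 211 and 241 genes were called. Of 138 ribosomal protein genes 2 were higher at 0 min (median log2 difference 0.16), with a summed level of 181597 to 198302 CPM with memory and 164299 to 176248 CPM without, so that every memory sample was already above every no-memory sample. Of 35 cytosolic chaperones 22 were lower already at 0 min and none higher (median −1.52), with a summed level of 15151 to 18898 CPM with memory and 43068 to 62001 CPM without. The chaperone difference was therefore present before the last heat shock, and the ribosomal protein difference was not called then for 136 of 138 genes.

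**Figure D4:**
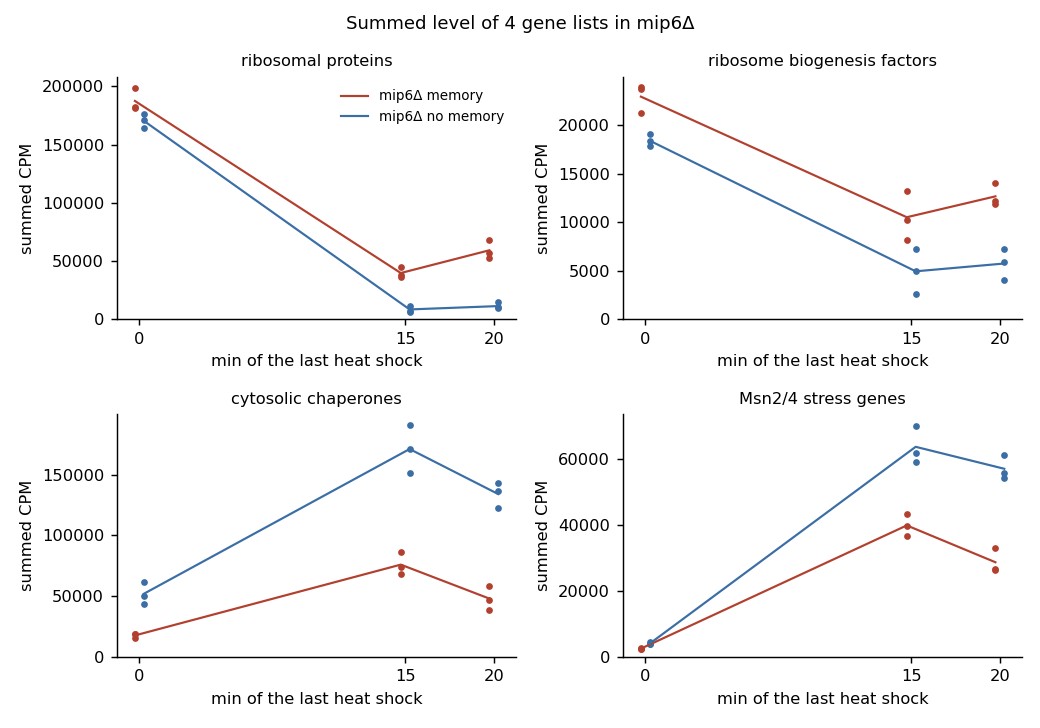
Summed CPM of 4 gene lists in *mip6Δ* memory and no-memory samples at 0, 15 and 20 min of the last heat shock, with a point for each sample and lines through the means of 3. Ribosomal protein genes sum to 181597 to 198302 CPM with memory and 164299 to 176248 CPM without at 0 min, which do not overlap, and to 52567 to 68054 CPM with memory and 9466 to 14628 CPM without at 20 min.

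Whether the difference at 20 min was another than that at 0 min was tested as an interaction. It was called for 810 genes (13.4%), 561 (9.29%) in which the memory difference was more positive at 20 min and 249 (4.12%) in which it was more negative. With the replicate block of strain and number it was called for 1676 genes, and without the samples of any one number for 250 to 451. Ribosomal protein genes made up 136 of the 561, with a median change of 2.34 over the list, and *RPL15B* was among the 249 (−0.73, adjusted p 0.0361). *RPS22A*, for instance, had a memory difference of 0.02 at 0 min and 3.00 at 20 min on the log2 scale, a change of 2.98 (adjusted p 4.88e-05). Of the cytosolic chaperones 4 changed in each direction and 27 were not called. *SSA3*, for a stress-induced Hsp70, was at 61.4 ± 4.74 CPM with memory and 63.7 ± 15.0 CPM without at 0 min (SD, n = 3 each), so its difference appeared after 0 min, a change of −1.84 (adjusted p 0.000139). *BTN2* stood at 94.7 ± 63.4 CPM with memory and 1808 ± 1200 CPM without already at 0 min, and its change of 0.62 between the times was not called (adjusted p 0.729). Without memory its mean at 20 min, 1385 CPM, was no higher than at 0 min, where its samples were widely spread. *HXT5* was at 3.95 ± 0.0357 CPM with memory and 3.92 ± 0.162 CPM without at 0 min, and its change was −1.76 (adjusted p 0.00657).

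At 15 min the comparison within *mip6Δ* called 2368 genes (39.2%), 1288 higher (21.3%) and 1080 lower (17.9%) with memory. Leaving out the samples numbered 2 or 3 gave 1375 and 1541 genes. Of the 2368, 1985 were called at 20 min in the same direction, which is 83.8% of the 15 min calls and 72.6% of the 20 min calls. The difference between the 20 min and 15 min memory differences was called for no gene by edgeR, with 224 genes at an unadjusted p under 0.05, for none by DESeq2, and for 5 to 11 by limma on the normalised counts. Ribosomal protein genes were higher in 137 of 138 cases at 15 min too, with a median of 2.33.

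The same comparison in WT at 20 min, from samples that share none with *mip6Δ*, called 2676 genes (44.3%), 1317 higher (21.8%) and 1359 lower (22.5%). Leaving out the samples numbered 2 or 3 gave 1647 and 1544 genes. In both strains 2326 genes were called in the same direction and 0 in opposite directions, which is 85.0% of the *mip6Δ* calls and 86.9% of the WT calls. Ribosomal protein genes had a median log2 difference of 2.53 in *mip6Δ* and 1.97 in WT, where 137 of 138 were also higher. The summed level of these genes without memory was 10299, 9466 and 14628 CPM in *mip6Δ* and 27564, 11073 and 15282 CPM in WT, so that WT replicate 1 was the highest of the 6 samples and the others of both strains were interspersed. *RPS26B* had a difference of 3.34 in *mip6Δ* and 2.59 in WT, and cytosolic chaperones had a median of −1.17 and of −1.16. The difference between the strains' memory differences was called for no gene by edgeR, with 22 genes at an unadjusted p under 0.05, for none by DESeq2 (25 such genes) and for none by limma (79 such genes). At 3 samples a group this does not show that the strains respond alike. For *RPS26B* the strain difference was 0.75 with an adjusted p of 1.00.

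**Figure D5:**
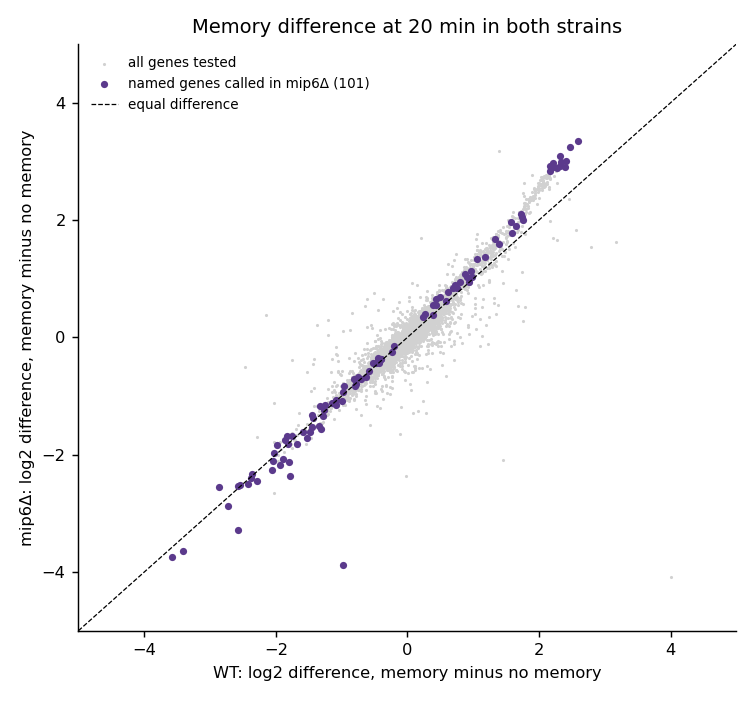
Log2 difference, memory minus no memory, at 20 min in *mip6Δ* (y axis) and WT (x axis) for all genes tested and for the 101 named genes called in *mip6Δ*, with a dashed line where both are equal. Ribosomal protein genes at the upper right lie above the line, as *RPS26B* does with 3.34 in *mip6Δ* and 2.59 in WT, a strain difference that was called for no gene.

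The WT no-memory samples also sort the genes by their response to a first heat shock, with no sample in common with the *mip6Δ* comparison. At 20 min against 0 min 4152 genes were called in them (68.8%). Of 2098 genes that rose by 20 min of heat in WT, 990 (47.2%) were lower with memory in *mip6Δ* and 56 (2.67%) higher. Of 2054 genes that fell in WT, 1016 (49.5%) were higher with memory in *mip6Δ* and 102 (4.97%) lower. The shares were larger among strong responses. Of 686 genes raised by at least 2-fold, 430 (62.7%) were lower with memory and 5 higher, and of 720 genes lowered by at least 2-fold, 504 (70.0%) were higher and 13 lower. Among the 1886 genes not called in WT, 315 were higher and 257 lower. With library totals, genes raised by heat were lower with memory in 496 cases and higher in 257, and genes lowered by heat were higher in 1452 cases and lower in 28.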

How the data were processed

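Gene counts of 36 libraries (TruSeq Stranded mRNA kit) were used. The authors trimmed reads with Trimmomatic, mapped them to sacCer3 with HISAT2 and deposited read counts per gene after StringTie, for 6403 genes. They also deposited a normalised signal of 6172 genes, made by TMM, a low count filter of NOISeq and ARSyN batch removal, whose values served as an alternative. The normalised table lacks 231 genes of the count table, among them *SSA4* and *BTN2*. Of those tested here, 10 were higher and 13 lower with memory.

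The counts of all 36 samples in 12 groups were fitted with edgeR 4.0.16 in R 4.3.3 (TMM, filterByExpr, quasi-likelihood test, 24 residual degrees of freedom, 6038 genes), and adjusted p-values (Benjamini-Hochberg, all 6038 genes of a contrast) below 0.05 were called. SE is the log2 difference divided by the root of F. Motifs were searched in RefSeq's R64 sequence. Near-identical copies share 90% identity over 50% of their length (blastn 2.17.0), which also finds overlapping genes. Steps were tested on simulated data.

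A memory and a no-memory flask came from a divided culture. Deviations from the group means of same-numbered *mip6Δ* samples at 20 min correlated at 0.174, 0.154 and 0.429. Those of differently numbered samples correlated at −0.432 to 0.254, the highest being memory replicate 2 with no-memory replicate 1. At 15 min the *mip6Δ* samples numbered 2 correlated at −0.2. Whether the numbers pair the flasks of a culture is therefore not settled, least of all for replicate 2. The block of strain and number was an alternative, beside DESeq2 1.42.0, limma 3.58.1 (pseudocounts 1 and 10), other scalings and filters, and left-out samples. One *mip6Δ* memory 0 min sample (replicate 2) carries 20 min in another label field and was kept as 0 min, as its title has it.

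Named genes are the 12 highest and 12 lowest called genes of at least 10 CPM with 1 sign in all 3 same-numbered pairs, and the 3 members of each list with the largest called difference. The genes of the study's text and the 3 highest and lowest of each interaction were added. Of the genes deleted in the strain, *MIP6* and *HIS3* were named, as the others had no matching entry. Other list members named in the text were chosen after their values were seen. The samples and the 28 lists were chosen with earlier results of these data known. Deposited columns were all mapped to a sample.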

Additional observations from a re-analysis of the deposited data

Results flagged for a closer look

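The memory difference in *mip6Δ* differed between 20 and 0 min by the interaction test in 810 genes at an adjusted p below 0.05. The genes with the most negative change, 20 minus 0 min on the log2 scale, were *RPR1* at −2.37 (adjusted p 0.00578), *SCR1* at −2.32 (adjusted p 0.0382) and *STR3* at −2.05 (adjusted p 0.000952). Without the samples numbered 1 or 3, *SCR1* had an adjusted p of 0.183 or 0.191, and without those numbered 2 or 3 *RPR1* had one of 0.0659 or 0.0728. *STR3*, an enzyme of methionine synthesis, was higher with memory at 0 min, at 37.4 ± 8.50 CPM against 13.6 ± 0.892 CPM without (SD, n = 3 each). At 20 min it had 27.3, 12.9 and 14.2 CPM with memory and 27.2, 18.7 and 36.2 CPM without, ranges that overlapped (adjusted p 0.0892, and 0.0295 with the replicate block). The genes with the most positive change were *RPS22A* at 2.98, *RPL31B* at 2.96 and *RPS0A* at 2.96, all ribosomal proteins.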

How the results depend on the processing

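The *mip6Δ* count at 20 min was 2595 to 3390 under every other scaling, filter, test or block over all 36 samples, and 2386 with the 6 samples alone. Similar counts do not mean the same genes. With library totals 3054 genes were called, and only 2005 of the 2736 calls were among them, all in the same direction. Leaving out a replicate number gave 1806 to 2340 genes, a single library of the 6 gave 2244 to 2650, and the 0 min sample with the conflicting label gave 2716. The 0 min count of 928 became 1457 with library totals, 1702 and 1697 with limma (pseudocounts 1 and 10), 1531 and 1726 with the block of number and of strain and number, and 211 to 1144 with a replicate number left out. The count of 810 for 20 against 0 min became 1633 and 1635 with limma, 1390 and 1676 with the blocks, and 250 to 451 with a number left out, or 672 without the conflicting sample. At 15 min, leaving out a number gave 1375 to 2159 genes, or 2335 without the conflicting sample, and in WT at 20 min 1544 to 2535, or 2658. The count of 0 for 20 against 15 min became 5 and 11 with limma. The causes were not tested. *RPD3* turned to 0.056 with library totals. Of the comparisons of 108 named genes with their settings, 2120 kept direction and call, 79 lost the call and 29 gained it. All 2736 calls were kept under the block of strain and number, which among the named genes added *PES4*, *NTH2*, *CDC28* and *STR3* and changed no other, while the block on the 6 samples alone also added *HSP12* and lost *RPD3* and *SMK1*.

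With 3 samples a group, a gene that was not called is not shown to be equal. The normalised table lacks *SSA4*, *BTN2* and other genes of high spread, so their results rest on the count table alone. Noncoding RNA without a poly(A) tail is measured only as far as it passed selection.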
